A study of Mus musculus with 32 samples.

Results

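The type I interferon (IFN) receptor pathway was described here through 9 genes in mouse bone marrow-derived macrophages (BMDMs): the ligand gene Ifnb1, the receptor chains Ifnar1 and Ifnar2, the kinases Jak1 and Tyk2, the transcription factors Stat2 and Stat3, and the inhibitors Socs1 and Socs3. They are the rows of the gene count table whose Ensembl identifier, without its version, maps to these symbols, 9 of 54281 rows. All 9 were found once and all 9 passed the filter on low counts, so that each was tested among 15257 genes. BMDMs are macrophages differentiated in culture from bone marrow. All cells carried R26 CreERT2, a Cre recombinase expressed from the ubiquitously active Rosa26 locus that becomes active when 4-hydroxytamoxifen (4-OHT) binds to it, and a loxP-flanked Trex1 allele. TREX1 is a DNA-degrading exonuclease whose loss leaves DNA in the cytosol that can be sensed by cGAS, which signals through STING. Cells of Trex1 FL/FL R26 CreERT2 mice, which have no unflanked allele, and of Trex1 WT/FL R26 CreERT2 mice, with 1 unflanked wild type allele, were either exposed to 4-OHT at 2 µg/ml for 22 h or left untreated, and RNA was sequenced on days 1, 2, 3 and 4 after the exposure had ended. This gives 16 groups of 2 libraries and 32 libraries in all. The labels name no animal or batch, so that p-values measure only the spread between these libraries, which may be technical.

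IFN-β, encoded by Ifnb1, binds a receptor of IFNAR1 and IFNAR2. TYK2 is bound to IFNAR1 and JAK1 to IFNAR2, and both kinases phosphorylate STAT proteins, of which STAT2 joins IRF9 in the complex ISGF3. ISGF3 binds the interferon-stimulated response element (ISRE) of IFN-stimulated genes (ISGs), whereas STAT dimers, those of STAT3 among them, bind the GAS element. STAT3 is best known as the factor through which IL-10 and IL-6 act on macrophages. SOCS1 blocks JAK kinases, TYK2 among them, and SOCS3 acts mainly on receptors that signal through gp130. Many parts of the pathway, Stat2, Irf9 and Socs1 among them, are themselves ISGs.

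The promoter sequences of 4 members are shown because Stat2 and Socs1 carried the largest differences among the members other than Ifnb1, while Ifnar2 and Socs3 did not pass the test between genotypes on any day and hold the other motif. They were thus chosen by their results and do not compare motifs with results. Ifnar1 also holds the GAS motif but passed on days 3 and 4. Neither motif was found for Ifnb1, Jak1 and Tyk2, which passed on some day, or for Stat3, which did not. In the RefSeq windows of build GRCm38.p6, which reach from 250 bases before to 50 bases after each transcription start, both strands were searched for the ISRE core, GAAA followed after any 2 bases by a second GAAA, and for the GAS motif TTCNNNGAA. Of 32851 windows of this length, 3.44% held the ISRE core and 8.30% held the GAS motif. Capitals mark the matches, and each run is written 5′ to 3′ along the strand of the gene. In the Stat2 run the core lies on the opposite strand, and in the Socs1 run 2 matches overlap.
Stat2, chr10:128270256-128270305, plus strand: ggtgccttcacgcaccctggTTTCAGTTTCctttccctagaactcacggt
Socs1, chr16:10785584-10785639, minus strand: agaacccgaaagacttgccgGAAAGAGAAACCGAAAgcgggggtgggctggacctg
Ifnar2, chr16:91372549-91372597, plus strand: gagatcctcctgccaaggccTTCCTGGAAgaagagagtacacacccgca
Socs3, chr11:117969492-117969540, minus strand: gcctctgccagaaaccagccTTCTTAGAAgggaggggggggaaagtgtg
The Stat2 match lies at −222 to −213 from the start, the Socs1 matches at −83 to −74 and −77 to −68, the Ifnar2 match at −214 to −206 and the Socs3 match at −154 to −146. Ifnar1 held a GAS match across its start, at −5 to 4. These letters were not found in the windows of Ifnb1, Jak1, Tyk2 and Stat3. A match is a description of the sequence and not a measured binding site.

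**Figure D1:**
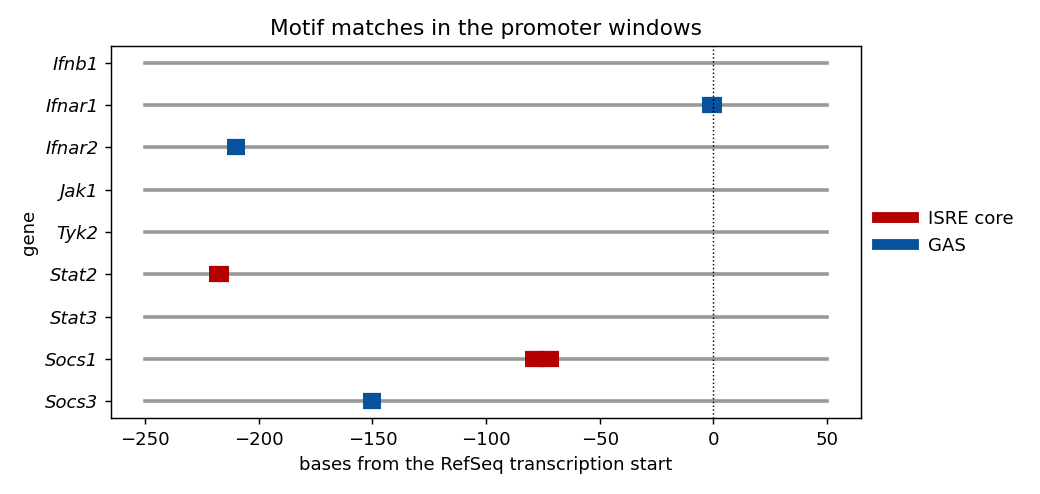
Position of ISRE core and GAS matches, in bases from the RefSeq transcription start, in the promoter window of each of the 9 genes. Stat2 and Socs1 hold the ISRE core, and Ifnar1, Ifnar2 and Socs3 hold the GAS motif.

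Per library, 35120505 to 63760884 counts were assigned to genes (median 44841991). Levels are given as CPM, each count divided by the library size after scaling with TMM factors. The targeted gene Trex1 was at 0 counts in both 4-OHT-treated FL/FL libraries of days 1, 3 and 4, with 14 and 9 counts on day 2, against 758 to 3622 counts in 4-OHT-treated WT/FL cells. Against a floor of 3 counts per library it was at least 221-fold, 1070-fold and 557-fold lower on days 1, 3 and 4. Trex1 overlaps Atrip in the annotation, and Salmon divides reads of shared sequence between genes. The summed CPM of 8 macrophage markers was 15300 to 48700, whereas it was 3.45 to 14.3 for 7 neutrophil and progenitor markers, 0.559 to 2.52 for 6 dendritic cell markers, 0 to 0.173 for 4 B cell markers and 0.396 to 3.21 for 5 fibroblast and stromal markers. The sum of 6 T and NK cell markers was 0 to 52.9 and rested on Cd4, since the other 5 stayed below 1 CPM and Cd8a and Ncr1 were at 0 everywhere. Libraries of each group differed by more than sampling noise (chi-square per degree of freedom of 9.55 to 51.5). The highest value belonged to untreated FL/FL cells on day 1, where library 2 was lower than library 1 for Tyk2 (50.6 against 71.2 CPM) and Socs3 (25.5 against 42.6 CPM).

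The first question was which parts of the pathway differed between 4-OHT-treated FL/FL and 4-OHT-treated WT/FL cells, and on which day. On day 1 no member passed. From day 2 on Stat2 was higher in FL/FL cells on every day, Socs1 was higher on days 2 and 4, Tyk2 was higher on day 2, and the small Ifnb1 signal was higher on day 4. Ifnar1 was lower on days 3 and 4 and Jak1 was lower on day 4. Ifnar2, Stat3 and Socs3 did not pass on any day. With edgeR's quasi-likelihood test and an adjusted p below 0.01, 0, 3, 2 and 5 of the 9 members passed on days 1 to 4, beside 0.0197%, 8.17%, 12.1% and 21.5% of all tested genes. The 5 on day 4 include Ifnb1, which passed the filter on low counts only through 4-OHT-treated FL/FL libraries of days 2 to 4. Past an absolute log2 fold change of 1.5 as well, the thresholds of the study, the members were 0, 1 (Socs1), 0 and 3 (Ifnb1, Stat2 and Socs1), beside 0.0131%, 0.583%, 0.872% and 2.98% of all genes. On day 1 no member reached an unadjusted p below 0.05, and DESeq2 called 0 members. The median log2 fold change of the 9 members was −0.04, 0.17, −0.04 and 0.14 on days 1 to 4, against −0.01, −0.01, −0.01 and −0.04 over all tested genes. Without Ifnb1 the member medians were −0.05, 0.08, −0.07 and 0.10. Where 2 libraries are said below not to overlap with 2 others, this has a probability of 0.333 when nothing differs. The share of all tested genes without overlap was not counted.

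**Figure D2:**
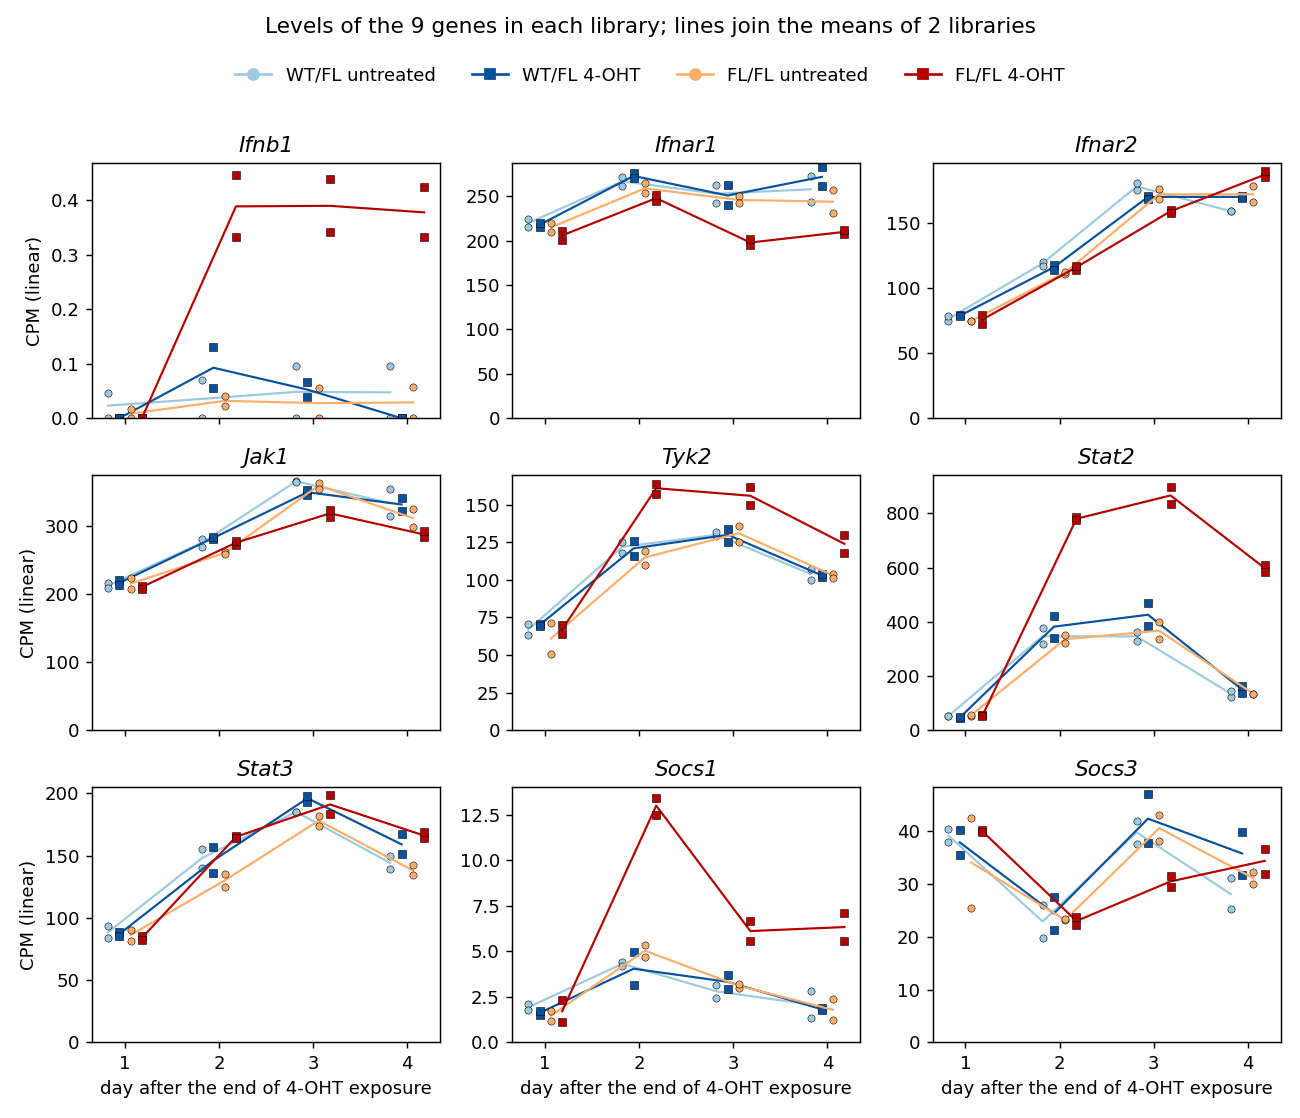
CPM on a linear scale against the day after 4-OHT had been removed for the 9 genes, with 1 point per library and lines through the means of 2 libraries. 4-OHT-treated FL/FL libraries (dark red squares) lie above all other libraries of the day for Stat2 and Socs1 on days 2 to 4, and Ifnb1 stays below 0.5 CPM.

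Ifnb1 (ENSMUSG00000048806.4, GRCm39 chromosome 4, 88440262 to 88441011, minus strand) was close to the detection limit. Its 2 libraries of 4-OHT-treated FL/FL cells held no count on day 1, 18 and 12 counts on day 2, 15 and 20 on day 3, and 12 and 14 on day 4, which is 0.332 to 0.446 CPM on days 2 to 4. In 4-OHT-treated WT/FL cells the counts were 0 and 0, 6 and 3, 2 and 3, and 0 and 0 on the same days. The 6 libraries of 4-OHT-treated FL/FL cells on days 2 to 4 thus held 12 to 20 counts and did not overlap with the other 26 libraries, which held 0 to 6 counts. Ifnb1 passed the filter on low counts only through these 6 libraries, so that its tests are descriptions. Summed over 2 libraries, the FL/FL signal was 4.39 times that of WT/FL on day 2 (95% exact interval 2.03 to 10.5, counting error only) and 7.35 times on day 3 (2.87 to 24.0), and on day 4 it was at least 6.55-fold higher against the floor of 3 counts per library. The model across all genes gave adjusted p of 0.314, 0.125 and 0.0062 on days 2, 3 and 4. On these days the mean of 4-OHT-treated FL/FL cells stayed at 0.389, 0.39 and 0.378 CPM. That of 4-OHT-treated WT/FL cells was 0.0927, 0.0525 and 0 CPM. The day 4 call was lost without any 1 of the 4 libraries, with adjusted p of 0.0727 and 0.0543 without WT/FL library 1 or 2 and 0.0202 and 0.0255 without FL/FL library 1 or 2, and DESeq2 gave no adjusted p for it.

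No other IFN gene contributed a comparable signal. Of 17 type I IFN genes, 15 (13 IFN-α genes, Ifnab and Ifne) were at 0 counts in all 32 libraries, as were Ifng, Ifnl2 and Ifnl3. Ifnk had 7 counts in total. A count of 0 allows up to 3 counts per library. The IFN-α genes are near-identical copies, between which assigned reads can be split, but all 13 of them were at 0.

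The receptor chains moved little. Ifnar1 (ENSMUSG00000022967.13, chromosome 16, 91281942 to 91305789, plus strand) encodes the chain that carries TYK2. In 4-OHT-treated FL/FL cells it measured 211 and 201 CPM on day 1, 245 and 252 on day 2, 195 and 202 on day 3 and 208 and 212 on day 4. In 4-OHT-treated WT/FL cells it measured 216 and 220, 276 and 271, 263 and 240, and 283 and 262 CPM. The FL/FL libraries lay below both WT/FL libraries on each of the 4 days, and the difference passed on day 3 (log2 fold change −0.34, standard error 0.0619, adjusted p = 0.000185) and day 4 (−0.37, 0.0619, 2.62e-05). On days 1 and 2 it did not pass (−0.08 and −0.14). Without WT/FL library 1 the day 3 value was −0.27 (adjusted p = 0.0146). Ifngr1, a chain of the receptor for IFN-γ, was lower on days 2, 3 and 4 by log2 fold changes of −0.42, −0.40 and −0.23 (adjusted p of 2.22e-05, 3.72e-05 and 0.00551). Its partner Ifngr2 did not pass, with −0.05, −0.10 and 0.10.

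Ifnar2 (chromosome 16, 91169618 to 91202723, plus strand), the signal-transducing chain that carries JAK1, measured 72.6 and 79.1, 114 and 117, 160 and 158, and 185 and 190 CPM in 4-OHT-treated FL/FL cells on days 1 to 4. In 4-OHT-treated WT/FL cells it measured 79.0 and 78.4, 118 and 114, 171 and 168, and 171 and 169 CPM. The FL/FL libraries were below WT/FL on day 3 and above on day 4, and neither difference passed (−0.10, adjusted p = 0.189, and 0.14, adjusted p = 0.0292). Between untreated genotypes the Ifnar2 value on day 4 was 0.11 (adjusted p = 0.233). Of the 31-base words in Ifnar2 transcripts, 18.1% also occur in the overlapping gene Gm21970, which held 0 to 18 counts per library.

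Of the kinases, Tyk2 (chromosome 9, 21015363 to 21042689, minus strand) was higher and Jak1 lower. Tyk2 in 4-OHT-treated FL/FL cells measured 70.2 and 63.7 CPM on day 1, 164 and 157 on day 2, 162 and 150 on day 3 and 130 and 118 on day 4. In 4-OHT-treated WT/FL cells it measured 70.9 and 69.2, 126 and 116, 125 and 134, and 102 and 104 CPM. FL/FL libraries lay above both WT/FL libraries from day 2 on. Its log2 fold change reached 0.41 on day 2 (standard error 0.0998, adjusted p = 0.00621), and 0.26 on both later days (adjusted p of 0.0693 and 0.0518). The day 2 call was lost without any 1 of the 4 libraries, with adjusted p of 0.0202 and 0.107 without WT/FL library 1 or 2 and of 0.0705 and 0.0288 without FL/FL library 1 or 2.

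Jak1 (chromosome 4, 101008838 to 101122487, minus strand) measured 212 and 207, 272 and 278, 313 and 323, and 283 and 292 CPM in 4-OHT-treated FL/FL cells on days 1 to 4. WT/FL cells under 4-OHT measured 220 and 213, 280 and 283, 345 and 352, and 321 and 341 CPM. It was below both WT/FL libraries on each day. The values of days 1 to 3 did not pass (−0.04, −0.03 and −0.13), and that of day 4 passed (log2 fold change −0.20, standard error 0.055, adjusted p = 0.005). This call was lost without WT/FL library 2 (adjusted p = 0.0855) and without FL/FL library 1 or 2 (0.0604 and 0.0152), and in a fit of the compared libraries alone (0.0481) and without the filter on low counts (0.0195). Between untreated genotypes the Jak1 value on day 4 was −0.10 (adjusted p = 0.392). On that day Jak1 also did not pass for 4-OHT in FL/FL cells, or for the difference between genotypes in the effect of 4-OHT. Among the other kinases of the family, Jak2, which serves the IFN-γ receptor, was higher on days 2, 3 and 4 by 0.58, 0.34 and 0.62 (adjusted p of 2.09e-06, 0.00143 and 2.27e-07). Jak3 did not pass on any day.

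Stat2 (chromosome 10, 128106352 to 128128735, plus strand), the STAT that is particular to ISGF3, had the widest range of the members other than Ifnb1, 18.6-fold between its highest and lowest group mean. In 4-OHT-treated FL/FL cells it measured 56.2 and 51.0 CPM on day 1, 787 and 774 on day 2, 898 and 835 on day 3 and 611 and 584 on day 4. WT/FL cells under 4-OHT measured 44.7 and 48.5, 422 and 342, 384 and 468, and 138 and 162 CPM. The genotypes did not overlap on any day. FL/FL cells were 2.04-fold higher on day 2 (log2 fold change 1.03, standard error 0.118, adjusted p = 2.59e-06), 2.03-fold higher on day 3 (1.02, 0.118, 2.78e-06) and 3.98-fold higher on day 4 (1.99, 0.122, 8.97e-11). On day 1 the value was 0.20 (adjusted p = 1). All 3 calls held in each of the other settings and without any single library.

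The genotype difference of Stat2 grew between days. From day 1 to day 2 it grew by 0.83 (standard error 0.169, adjusted p = 0.00415), from day 2 to day 3 it changed by −0.01 (adjusted p = 1), and from day 3 to day 4 it grew by 0.97 (0.166, 0.000694). The number of members whose genotype difference changed was 1, 0 and 1 of 9 in these steps, beside 3.02%, 0.905% and 3.70% of all tested genes. In the middle step 1 member (Ifnar1, −0.20) had an unadjusted p below 0.05 and DESeq2 called 0, with no adjusted p for 1. Without single libraries the day 1 to day 2 growth ranged from 0.68 to 0.99 and lost its call 5 times, with adjusted p of 0.0313 and 0.0289 without WT/FL library 2 of day 2 or day 1, 0.0335 without FL/FL library 2 of day 1, and 0.0217 and 0.0163 without FL/FL library 1 or 2 of day 2. From day 3 to day 4 the Stat2 level itself fell by 1.5 on the log2 scale in 4-OHT-treated WT/FL cells (adjusted p = 2.89e-08) and by 0.54 in 4-OHT-treated FL/FL cells (adjusted p = 0.00303).

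**Figure D3:**
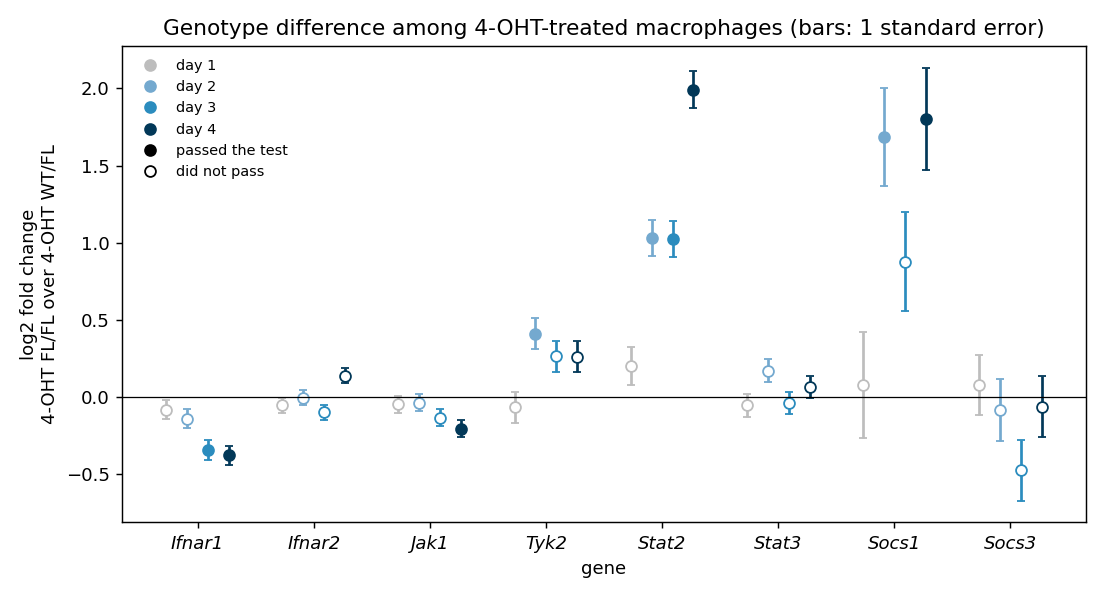
Log2 fold change of 4-OHT-treated FL/FL over 4-OHT-treated WT/FL cells for 8 members on days 1 to 4, with bars of 1 standard error and filled points for an adjusted p below 0.01. Stat2 reaches 1.99 on day 4 and Socs1 1.80, while Ifnar1 falls to −0.37. Ifnb1 is left out because its fitted value depends on groups at 0.

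Stat3 (chromosome 11, 100775924 to 100830450, minus strand) showed little of this. In 4-OHT-treated FL/FL cells it measured 85.6 and 82.0, 166 and 164, 183 and 199, and 164 and 169 CPM on days 1 to 4, and in 4-OHT-treated WT/FL cells 88.7 and 85.1, 157 and 136, 193 and 198, and 167 and 151 CPM. The genotypes overlapped on days 1, 3 and 4. The largest log2 fold change was 0.17, on day 2 (standard error 0.0723, adjusted p = 0.136). Irf9, the DNA-binding part of ISGF3, passed on day 4 only, with 0.26 (standard error 0.0513, adjusted p = 0.000267).

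Socs1 (chromosome 16, 10600104 to 10603875, minus strand) was expressed at a low level, with a median of 2.95 CPM over the 32 libraries. In 4-OHT-treated FL/FL cells it measured 2.31 and 1.09 CPM on day 1, 13.4 and 12.5 on day 2, 6.67 and 5.56 on day 3 and 7.09 and 5.57 on day 4, which rests on 54 to 542 counts. WT/FL cells under 4-OHT measured 1.49 and 1.72, 4.97 and 3.12, 2.93 and 3.71, and 1.87 and 1.75 CPM. From day 2 on the genotypes did not overlap. FL/FL cells were 3.22-fold higher on day 2 (log2 fold change 1.69, standard error 0.317, adjusted p = 0.000484) and 3.49-fold higher on day 4 (1.80, 0.333, 0.00016), whereas the day 3 value of 0.88 did not pass (0.319, 0.0573). Without WT/FL library 2 the day 2 value was 1.39 (adjusted p = 0.0245). Gm46563, an annotated RNA on the opposite strand, was at 0 counts in all libraries.

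Socs3 (chromosome 11, 117856905 to 117860898, minus strand) did not follow Socs1. In 4-OHT-treated FL/FL cells it measured 40.3 and 39.8, 22.2 and 23.7, 29.5 and 31.5, and 32.0 and 36.7 CPM on days 1 to 4, and in 4-OHT-treated WT/FL cells 40.3 and 35.5, 27.5 and 21.2, 47.0 and 37.7, and 39.8 and 31.8 CPM. The FL/FL libraries were below both WT/FL libraries on day 3 and overlapped with them on the other days. The day 3 difference of −0.47 did not pass (standard error 0.196, adjusted p = 0.109). Of 8 SOCS and CISH genes, Socs1 alone was higher on days 2 and 4 and Cish was lower on day 4 (−0.80, standard error 0.223, adjusted p = 0.00688). On day 3 none of them passed, with 3 at an unadjusted p below 0.05 and 0 called by DESeq2. Of all tested genes, 8.17%, 12.1% and 21.5% passed on days 2, 3 and 4, so that the day 4 calls are not particular to this family. The share of all genes at that unadjusted p is not given here.

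The lists around the members place these values. Both lists and members were compiled with earlier results of these libraries known, so that the counts are descriptions, to be read against the 0.0197%, 8.17%, 12.1% and 21.5% of all tested genes that passed on days 1 to 4. The ISGF3 target genes, 16 ISGs, had 0 of 16 past the test on day 1, with 8 at an unadjusted p below 0.05 and 0 called by DESeq2. The share of all genes at that unadjusted p is not given here. For Ifit1, Usp18, Irf7 and Cxcl10 the 4-OHT-treated FL/FL means of day 1 were 15.3, 12, 27.5 and 18.4 CPM. Those of 4-OHT-treated WT/FL cells were lower, at 10.1, 8.08, 20.7 and 13.7 CPM. Untreated WT/FL cells held 15.2, 12.3, 27.4 and 20.3 CPM, and untreated FL/FL cells 12.9, 11.6, 23.5 and 16.9 CPM. On days 2, 3 and 4 16 of 16 were higher, with median log2 fold changes of 1.76, 1.33 and 2.89 against −0.01, −0.01 and −0.04 over all genes. On day 4 the largest were Cxcl10, a chemokine, with 3.65 (standard error 0.283) and Rsad2, an antiviral enzyme, with 3.42 (0.279), and Irf7, Ifit1 and Usp18, which blocks IFNAR2, had 2.38, 2.71 and 2.72. Their medians and the Stat2 values were each larger on day 4 than on day 3.

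Of 8 GAS target genes, 0, 4, 3 and 4 were higher on days 1 to 4 and 2 were lower on day 3 (Ciita and Irf8) and 1 on day 4 (Ciita). On day 4 the list ran from Fcgr1 (2.27) and Gbp2 (2.23) to Ciita, the regulator of MHC class II genes (−1.04). Of 12 STAT3 target genes, 0, 3, 2 and 3 were higher on days 1 to 4 and 1 was lower on day 3 (Tnfaip3). On day 4 these 3 of 12 are close to the 21.5% of all genes. Its median on day 4 was 0.11, and the largest were Il1rn (0.56), which encodes an antagonist of IL-1, and Pim1 (0.53), a kinase. Of the cytokines that activate STAT3, Il10 was higher on day 2 (8.42 and 8.13 against 3.88 and 3.38 CPM, log2 fold change 1.19, adjusted p = 7.45e-05) and did not pass on day 4 (0.53, adjusted p = 0.0352). Il6 stayed between 0.0513 and 0.888 CPM in 4-OHT-treated cells and did not pass on any day. Of the 9 tested genes of that list, Csf3r, the receptor of G-CSF, was the only one higher on day 4, with 0.49.

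Of 9 other negative regulators, Usp18 and the phosphatase gene Ptpn6 were higher on day 4 (2.72 and 0.39) and Pias3 and Pias2 were lower (−0.39 and −0.27). Genes outside the pathway also differed between the 4-OHT-treated genotypes. Of 8 G2/M genes, 3 (Mki67, Bub1 and Cenpf) were lower on day 2, when their summed level was 879 and 812 CPM in FL/FL against 1100 and 1040 CPM in WT/FL cells. They did not pass on day 3 (0 of 8, with 4 at an unadjusted p below 0.05 and 0 called by DESeq2) and were all lower on day 4 (8 of 8, median −2.32, with −3.70 for Cenpf and −3.57 for Plk1). Of 8 macrophage markers, Fcgr1 and Cd14 were higher on day 4 (2.27 and 0.29) and Itgam and Csf1r were lower (−0.35 and −0.28). Their summed level was below both WT/FL libraries in FL/FL cells on day 2 (26600 and 28600 against 32000 and 34100 CPM) and day 3 (39300 and 38900 against 48100 and 45700 CPM), and overlapped on day 4 (31400 and 29400 against 31700 and 30900 CPM). Their part in the results of the 9 members was not tested. In bulk RNA, fewer cells of a kind and less RNA per cell cannot be told apart.

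**Figure D4:**
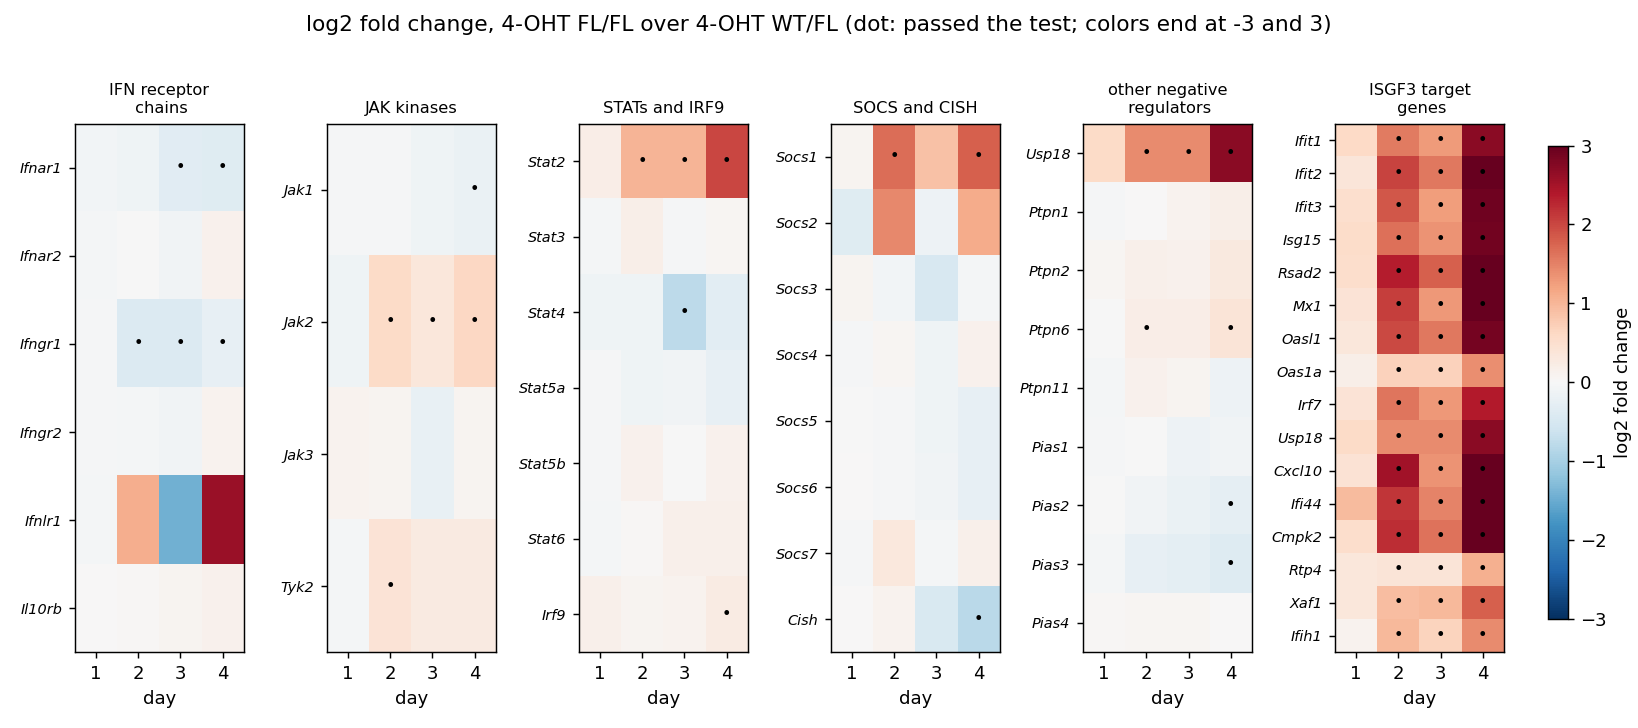
Log2 fold change of 4-OHT-treated FL/FL over 4-OHT-treated WT/FL cells on days 1 to 4 for genes of 6 lists, with a dot for an adjusted p below 0.01. All 16 ISGF3 target genes carry a dot on days 2 to 4, while among receptors, kinases, STATs and SOCS genes few do. Ifnlr1 and Socs2 have strong colors without a dot and are expressed near the detection limit.

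The second question was whether the members differed between untreated genotypes, or moved with 4-OHT in WT/FL cells. Between untreated FL/FL and untreated WT/FL cells 0 of 9 members passed on each of the 4 days, beside 0%, 0%, 0% and 0.0655% of all tested genes on days 1 to 4. At an unadjusted p below 0.05 there were 0, 1 (Stat3), 0 and 1 (Ifnar2) members, and DESeq2 called 0 on each day, with no adjusted p for 2 members on day 4. Stat2 measured 53.9 and 51.2, 376 and 317, 328 and 363, and 124 and 145 CPM in untreated WT/FL cells and 54.1 and 57.5, 351 and 321, 400 and 335, and 132 and 135 CPM in untreated FL/FL cells. Its log2 fold change between them lay between −0.05 and 0.09. On day 1, leaving out untreated FL/FL library 1, which keeps the library with the low Tyk2 and Socs3 values, put 1 member, Tyk2, past the test in this comparison and in that of 4-OHT-treated with untreated FL/FL cells.

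WT/FL cells also carry a flanked allele, so that this comparison is not of 4-OHT alone: their Trex1 level was 13.6, 57.2, 74.2 and 48.4 CPM with 4-OHT on days 1 to 4 and 30.3, 119, 135 and 84.3 CPM without (means, n = 2). In WT/FL cells 4-OHT moved 0 of 9 members on each day, beside 0.00655%, 0.0918%, 0.341% and 0.216% of all tested genes on days 1 to 4. There were 0, 0, 1 and 0 members at an unadjusted p below 0.05, the 1 being Stat2 on day 3 with 0.30 (standard error 0.117, adjusted p = 0.426), and DESeq2 called 0 on each day, with no adjusted p for 1 member on day 4.

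In FL/FL cells 4-OHT moved 0, 4, 2 and 4 of 9 members on days 1 to 4, beside 0.0131%, 11.1%, 15.7% and 21.4% of all tested genes. These comparisons share the 4-OHT-treated FL/FL libraries with those between genotypes. On day 1 no member reached an unadjusted p below 0.05 and DESeq2 called 0. Stat2 was higher by 1.22, 1.24 and 2.16 on days 2, 3 and 4 (adjusted p of 1.91e-07, 1.33e-07 and 2.32e-11). Socs1 was higher on day 2 (1.37, adjusted p = 0.0027) and day 4 (1.86, adjusted p = 0.00013), with the day 3 value of 0.98 at an adjusted p of 0.0303. Tyk2 was higher on day 2 (0.49, standard error 0.1, adjusted p = 0.00109). Unlike between genotypes, Stat3 was higher on day 2 (0.35, standard error 0.0725, adjusted p = 0.000848) and day 4 (0.27, 0.0726, 0.00528). Its treated libraries measured 166 and 164 CPM on day 2 against 135 and 125 in untreated FL/FL cells. Untreated WT/FL cells measured 155 and 140 CPM on that day. Stat3 was lower in untreated FL/FL than in untreated WT/FL cells (−0.19, standard error 0.0724), which did not pass. Between 4-OHT-treated genotypes the day 2 value was 0.17. Ifnar1 was lower on day 3 (−0.31, adjusted p = 0.000368) and day 4 (−0.22, adjusted p = 0.0078).

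Some of these calls were lost in other settings. For Socs1 on day 2 and Stat3 on day 4 each of the 4 libraries was needed, with adjusted p of 0.0141 to 0.0421 and of 0.0143 to 0.0704 when 1 was left out. For Stat3 on day 2 the call was lost without treated library 1 (adjusted p = 0.0114) or untreated library 2 (0.0312), and for Tyk2 without the same libraries (0.0185 and 0.0324). For Ifnar1 it was lost on day 3 without treated library 1 (0.0116) and on day 4 without untreated library 1 (0.193) or treated library 1 or 2 (0.0623 and 0.0293), in a fit of the compared libraries alone (0.0252) and without the filter on low counts (0.0104).

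The difference between the genotypes in the effect of 4-OHT was tested directly. Stat2 passed on days 2, 3 and 4, with differences of 1.08 (standard error 0.166, adjusted p = 0.000197), 0.94 (0.166, 0.00096) and 2.00 (0.169, 3.48e-08). Socs1 passed on day 4, with 2.02 (0.484, 0.0042). The members past the test were thus 0, 1, 1 and 2 of 9, beside 0.00655%, 4.04%, 4.65% and 10.4% of all tested genes, and on day 1 no member had an unadjusted p below 0.05 and DESeq2 called 0. Socs1 on day 2 missed the threshold (1.46, adjusted p = 0.0498), as did Ifnb1 on day 4 (adjusted p = 0.038). The values of Tyk2 and Stat3 on day 2 (0.50 and 0.36, adjusted p of 0.0352 and 0.0307) and of Ifnar1 on days 3 and 4 (−0.30 and −0.29, adjusted p of 0.0278 and 0.0194) missed it too. The Socs1 call was lost without 5 of the 8 libraries, with values of 1.40 without untreated WT/FL library 2 (adjusted p = 0.0601), 1.58 without untreated FL/FL library 1 (0.0399), 1.83 without treated FL/FL library 1 (0.0243), and 2.07 and 1.97 without treated WT/FL library 1 or 2 (0.0175 and 0.0197). In a fit of the compared libraries alone, the adjusted p was 0.0307 for Socs1 on day 4 and 0.028 for Stat2 on day 3.

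**Figure D5:**
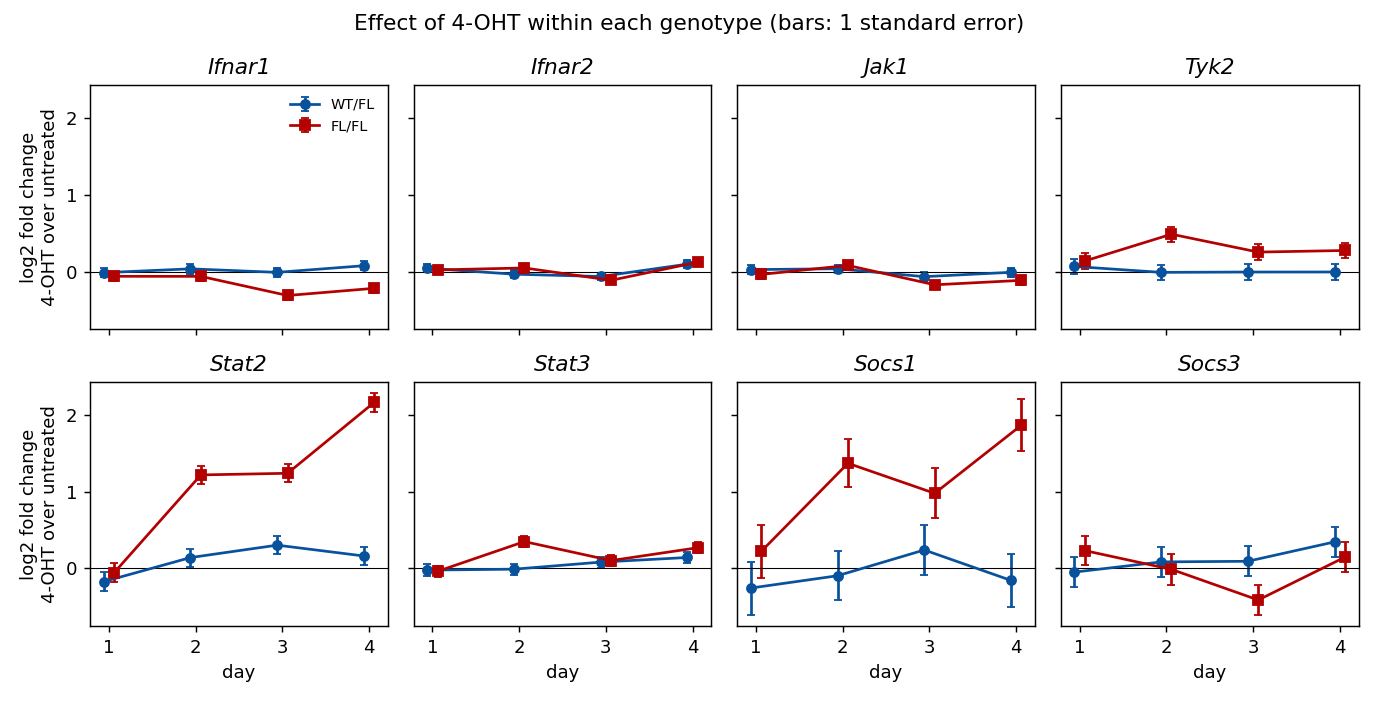
Log2 fold change of 4-OHT-treated over untreated cells within WT/FL (blue) and FL/FL (red) cells on days 1 to 4 for 8 members, with bars of 1 standard error. In WT/FL cells no point passes the test, with 0.34 for Socs3 on day 4 as the highest, while in FL/FL cells Stat2 reaches 2.16 and Socs1 1.86 on day 4.

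The third question was how the members moved with time in culture. From day 1 to day 2 the same 7 members rose in all 4 conditions: Ifnar1, Ifnar2, Jak1, Tyk2, Stat2, Stat3 and Socs1. Such steps were common among all tested genes, of which 38.4%, 38.5%, 38.6% and 41.1% passed in either direction in untreated WT/FL, untreated FL/FL, 4-OHT-treated WT/FL and 4-OHT-treated FL/FL cells. Of 15257 genes, 3089, 3092, 3077 and 3310 were higher on day 2 in this order. The share of genes that rose in all 4 conditions was not counted. Stat2 rose 6.60-fold and 6.02-fold in untreated WT/FL and FL/FL cells, 8.20-fold in 4-OHT-treated WT/FL cells and 14.6-fold in 4-OHT-treated FL/FL cells, so that Stat2 also rose in untreated cells of both genotypes. Tyk2 rose 1.82-fold, 1.88-fold, 1.73-fold and 2.40-fold, and Socs1 2.24-fold, 3.44-fold, 2.51-fold and 7.63-fold in the same order. Socs3 went the other way and was lower on day 2 in untreated WT/FL (−0.77, adjusted p = 0.00335) and 4-OHT-treated FL/FL cells (−0.80, 0.00244). Its mean also fell in untreated FL/FL cells (34.1 to 23.2 CPM) and 4-OHT-treated WT/FL cells (37.9 to 24.4 CPM), where it did not pass. Ifnb1 passed in 4-OHT-treated FL/FL cells, from 0 and 0 to 18 and 12 counts. Since it passed the filter on low counts only through such libraries of days 2 to 4, this call is a description. Of these steps, those of Ifnar2, Jak1, Tyk2, Stat2 and Stat3 held without any single library in every condition, but those of Ifnar1, Jak1 and Tyk2 in untreated FL/FL cells were lost in a fit of the compared libraries alone (adjusted p of 0.024, 0.0231 and 0.0121). Socs1 lost its call without any 1 of 4 libraries in untreated WT/FL cells (adjusted p up to 0.0594) and without 3 of 4 in 4-OHT-treated WT/FL cells (up to 0.0497), Socs3 without 3 of 4 in untreated WT/FL (up to 0.0608) and any of 4 in 4-OHT-treated FL/FL cells (up to 0.025), Ifnb1 without 3 of 4 (up to 0.0414), and Ifnar1 without 1 or 2 libraries in 3 of the conditions (up to 0.0154), in 4-OHT-treated FL/FL cells also with upper-quartile factors (0.0101).

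From day 2 to day 3 Ifnar2 and Jak1 rose again in all 4 conditions, Ifnar2 by 0.58, 0.62, 0.55 and 0.46 and Jak1 by 0.41, 0.46, 0.31 and 0.21 on the log2 scale in the order given above. Of all tested genes 34.9%, 36.9%, 36.3% and 33.1% passed in this step in either direction. Stat3 rose in the other 3 conditions by 0.33, 0.46 and 0.42, and Socs3 by 0.79, 0.81 and 0.80, and in 4-OHT-treated FL/FL cells their values of 0.21 and 0.41 did not pass (adjusted p of 0.0195 and 0.11). The difference between genotypes in this step was not past the test for either (adjusted p of 0.341 and 0.574). In 4-OHT-treated FL/FL cells Ifnar1 fell by 0.32 (adjusted p = 9.92e-05) and Socs1 by 1.09 (0.00616). The Jak1 call in those cells was lost without 3 of 4 libraries (adjusted p up to 0.038) and without the filter (0.0104), and the Socs1 call without any of 4 (up to 0.0721). The Socs3 calls were lost without 2, 3 and 2 of 4 libraries (up to 0.0583), in 4-OHT-treated WT/FL cells also on the compared libraries alone (0.014), and the Stat3 call in untreated WT/FL cells without library 2 of day 2 (0.0247).

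From day 3 to day 4 Stat2 fell in all 4 conditions, by 1.36, 1.46 and 1.5 on the log2 scale in the 3 others and by 0.54 in 4-OHT-treated FL/FL cells. Of all tested genes 12.3%, 13.6%, 12.2% and 9.33% passed in either direction. Stat3 fell in the 3 other conditions by 0.36, 0.37 and 0.30, and by 0.20 in 4-OHT-treated FL/FL cells, which did not pass (adjusted p = 0.0619). Jak1 fell in untreated FL/FL cells by 0.20 (adjusted p = 0.00764), and Ifnar2 rose in 4-OHT-treated FL/FL cells by 0.24 (adjusted p = 0.00097). The Stat2 call in 4-OHT-treated FL/FL cells was lost without any 1 of 4 libraries (adjusted p up to 0.0367), the Ifnar2 call without library 2 of either day (0.0188 and 0.018) and without the filter (0.0132), the Jak1 call without 3 of 4 (up to 0.17) and with RLE or upper-quartile factors (0.0153 and 0.021), without the filter (0.0326) and in a fit of the compared libraries alone (0.0101), and the Stat3 calls without 1, 2 and 3 of 4 libraries (up to 0.0772), the last also on the compared libraries alone (0.0102). The Stat2 calls in the other 3 conditions held without any single library.

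Across the 16 group means of log2 CPM, the genes most like each member were named by Pearson's r as a description. The points share day and culture, which moved most genes. Stat2 was closest to Trim21 (r = 0.996), Tnfsf10 (0.994) and Herc6 (0.993), Tyk2 to Sesn2 (0.990), Gbp7 (0.986) and Gbp5 (0.985), and Ifnb1 to Slfn10 (0.953), Apol9a (0.947) and Slfn4 (0.946). Socs1 was closest to Pcsk7 (0.981), Pnp (0.976) and Max (0.974), Jak1 to Birc3 (0.990), N4bp1 (0.990) and Atg2a (0.989), and Stat3 to Dock2 (0.992), Plcl2 (0.991) and Nr3c1 (0.990). Ifnar2 was closest to Limd2 (0.998), Gpr65 (0.997) and Adck2 (0.997). The nearest genes of Ifnar1 (Pank1, 0.929, Atp6v0a1, 0.924, and Ints6l, 0.914) and of Socs3 (Filip1l, 0.925, Chd1, 0.894, and Slc16a6, 0.889) were less alike.

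Per kilobase of exon, the median level over the 32 libraries was 51.4 CPM for Stat2, 37.2 for Ifnar2, 30.0 for Ifnar1, 26.1 for Jak1, 14.9 for Stat3, 13.4 for Tyk2, 9.01 for Socs3, 0.873 for Socs1 and 0.0532 for Ifnb1. Between the highest and the lowest group mean the members spanned 18.6-fold (Stat2), 8.90-fold (Socs1), 2.64-fold (Tyk2), 2.50-fold (Ifnar2), 2.34-fold (Stat3), 1.85-fold (Socs3), 1.74-fold (Jak1) and 1.38-fold (Ifnar1). In the order of the 16 group means, neighbours overlapped in 9 of 15 pairs for Stat2 and Ifnar2, in 10 for Jak1, in 12 for Tyk2, Stat3 and Socs1, in 14 for Ifnar1 and Ifnb1 and in 15 for Socs3. For Stat2 the top 3 places were held by 4-OHT-treated FL/FL cells of days 3, 2 and 4, followed by 4-OHT-treated WT/FL cells of days 3 and 2, and the lowest 4 by the day 1 groups.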

How the data were processed

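RNA of 32 BMDM libraries was measured. The authors demultiplexed the reads with JE, used Salmon for transcript abundances and tximport to bring these to genes. GRCm39 is the build in the submitters' processing notes, which also name FastQC 11.9 and DESeq2 1.32. The annotation release is not given in the sources used here. What the authors deposited is 1 estimated count per gene and library, not normalized and stored as a whole number, so that no rounding was needed. Identifiers were matched to GENCODE vM39 (51048 of 54281, the others holding 0.32% of counts). Columns were assigned to groups by their names and the labels.

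The quasi-likelihood test of edgeR 4.0.16 (R 4.3.3) was applied with TMM factors, robust glmQLFit and 1 mean for each of 16 groups, which left 16 residual degrees of freedom. The edgeR filter with a minimum count of 10 kept 15257 genes. A gene passed at a Benjamini-Hochberg adjusted p below 0.01 over these genes. Changes between days, treatments, genotypes and their interaction were 35 contrasts of the same fit. An exact permutation test of 2 libraries against 2 cannot go below a two-sided p of 0.333. The test was tested on simulated data before use. Each result was repeated with DESeq2 1.42.0, with RLE or upper-quartile factors, with other filters and thresholds, on the compared libraries alone and without each library in turn.

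All 9 members were tested and counted in each comparison. Levels were given for each of them in 4-OHT-treated cells of both genotypes, and in the other comparisons values were given only for some. The pathway genes Irf9, Jak2, Ifngr1, Ifngr2, Usp18, Il10, Il6, Ifit1, Irf7 and Cxcl10 were reported with values. From each list the 2 largest increases and 2 largest decreases past the test between 4-OHT-treated genotypes on day 4 were reported. A result of 1 further gene is not reported here. Members and lists were chosen with earlier results of these data known. Promoter windows are from RefSeq GRCm38.p6, where all 9 members matched, and gene coordinates from GENCODE vM39 on GRCm39.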

Additional observations from a re-analysis of the deposited data

Results flagged for a closer look

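The differences below were named because the effect of 1 contrast differed between genotypes or days in a direct test in the edgeR model. The effect of 4-OHT on Stat2 was larger in FL/FL than in WT/FL cells on day 2 (difference of log2 fold changes 1.08, standard error 0.166), day 3 (0.94, 0.166) and day 4 (2.00, 0.169). The effect of 4-OHT on Socs1 was larger in FL/FL cells on day 4 (2.02, 0.484). The Stat2 difference between 4-OHT-treated genotypes grew from day 1 to day 2 (0.83, 0.169) and from day 3 to day 4 (0.97, 0.166).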

How the results depend on the processing

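No paired analysis was possible because the labels give no replicate number, animal or batch. All 35 counts of members past the test kept within 1.5 times their value with RLE factors, upper-quartile factors and a minimum count of 50, and no called value changed sign in any setting. Where counts moved, the cause was not tested. Without a filter on low counts, members past the test were 5 between 4-OHT-treated genotypes on day 3, 1 for 4-OHT in WT/FL on day 3, 5 for 4-OHT in FL/FL on day 3, 3 and 2 for the interaction on days 2 and 3, 3 for the growth of the genotype difference from day 1 to 2, and 4, 5 and 4 from day 3 to 4 in untreated WT/FL, untreated FL/FL and 4-OHT-treated WT/FL cells. In the same order, all genes called were 2160, 267, 2615, 836, 1113, 727, 2228, 2422 and 2152. With the filter of the main fit they were 1848, 52, 2394, 616, 710, 460, 1869, 2074 and 1854. For the settings that follow, no share of all genes is given beside the counts. Their counts are not read as results about the members. DESeq2 gave 2 for the interaction on day 2 and 2 for the growth from day 3 to 4. Fits of the compared libraries alone gave 5 for 4-OHT in FL/FL on day 3, 3, 0 and 1 for the interaction on days 2 to 4, 2 for the growth from day 1 to 2, and 4 for untreated FL/FL from day 1 to 2. At an adjusted p below 0.05 the counts were 4 for 4-OHT in FL/FL on day 3, 4, 2 and 4 for the interaction on days 2 to 4, 2 and 2 for the growth in the first and last step, and 4 for untreated WT/FL from day 3 to 4. With the thresholds of the study they were 1, 0 and 3 between 4-OHT-treated genotypes on days 2 to 4, 0, 0 and 2 for 4-OHT in FL/FL, 0 and 0 for the interaction on days 2 and 3, 0 and 0 for the growth in the first and last step, and, over the 3 steps between days, 1, 0 and 0 in untreated WT/FL, 2, 0 and 0 in untreated FL/FL, 1, 0 and 1 in 4-OHT-treated WT/FL and 3, 0 and 0 in 4-OHT-treated FL/FL cells. Leaving out 1 library gave ranges of 1 to 2, 1 to 2 and 3 to 4 between 4-OHT-treated genotypes on days 2 to 4, 0 to 1 between untreated genotypes on day 1, 0 to 1, 1 to 3, 1 to 2 and 2 to 3 for 4-OHT in FL/FL on days 1 to 4, 1 to 2 and 1 to 3 for the interaction on days 2 and 4, and 0 to 2 for the growth from day 1 to 2. Between days the ranges were 5 to 7, 2 to 4 and 1 to 2 over the 3 steps in untreated WT/FL cells, 1 to 3 from day 3 to 4 in untreated FL/FL, 1 to 2 from day 3 to 4 in 4-OHT-treated WT/FL, and 2 to 3 and 0 to 1 in the last 2 steps in 4-OHT-treated FL/FL cells. A group then left with 1 library is assumed to vary like the others. On plain library totals 75 of 144 group levels moved by more than 1 SD. Depth limits Ifnb1, with at most 20 counts per library.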
